A study of Mus musculus with 7 samples.

Results

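B lineage genes were followed in whole mouse shoulder joints taken 2 weeks after repair of the supraspinatus, a tendon of the rotator cuff. The 9 genes, chosen as a fixed list of symbols out of 56854 gene identifiers common to all files, were the precursor genes Vpreb1, Igll1 and Rag1 and the mature or pan-B genes Cd79a, Cd79b, Ms4a1, Pax5, Ebf1 and Cd22. Wild-type mice (WT, n = 3) were compared with mice lacking Tenascin C (Tnc-/-, n = 4), a matrix glycoprotein of developing and healing tendon, with 1 poly(A) RNA library per mouse. All 7 mice had the left shoulder repaired, so no uninjured joint was in the comparison, and the labels gave neither age, sex, strain nor the nature of the Tnc allele. Joints were dissected whole, so tendon, muscle, cartilage, bone and any marrow within it shared 1 RNA sample. In such bulk RNA, fewer cells of a type and less RNA per cell cannot be told apart.

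B cells arise in bone marrow, where precursors rearrange their immunoglobulin genes with the recombinase of which Rag1 is a catalytic subunit. Before a light chain exists, Vpreb1 and Igll1 (lambda5) together form the surrogate light chain of the pre-B cell receptor, and both genes are switched off as cells mature. Ebf1 and Pax5 are transcription factors that specify and commit the lineage. Cd79a and Cd79b are the signalling chains of the B cell receptor from the precursor stage onward, Cd22 is an inhibitory co-receptor, and Ms4a1 encodes CD20 of the B cell surface. The comparison asked whether the precursor genes and the others differed between the genotypes, and whether they did so together.

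Of the 9 genes, 7 had counts in every library and 2, Rag1 and Ms4a1, were listed at 0 in every library. Among the 7, Cd22 was higher in Tnc-/- joints (2.37-fold; log2 fold change 1.25, SE 0.38; adjusted p = 0.0377, edgeR quasi-likelihood test with Benjamini-Hochberg adjustment over 17791 genes). None was lower, and 6 did not pass the threshold of 0.05, although 6 of the 7 estimates lay above 0. Over all tested genes 10.3% were called higher and 18.7% lower in Tnc-/-, together 29.0%, and 1 call among 7 genes is near that background. The median log2 fold change of the 7 genes was 0.70, against a median of -0.0009 over all tested genes. The latter varied with gene span, in a split made after the data were seen. It was 0.29 up to 10 kb, the class of Vpreb1, Igll1, Cd79a and Cd79b. From 10 to 50 kb it was 0.08 and over 50 kb -0.54. The call for Cd22 depended on which libraries were used, as given after the values of each gene.

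Promoter sequences are shown first for the surrogate light chain genes and for Cd79a and Cd22, the measured genes whose promoters held a motif searched here. E2A (Tcf3) and Ebf1 are the factors known to switch on the surrogate light chain and Cd79a genes in precursors. Promoters came from RefSeq (assembly GRCm38.p6) as 300 bases, 250 before to 50 after the gene start, and 7 of the 9 genes were found there; Cd79b and Ms4a1 were not. Capitals mark the E-box CAGGTG, read on either strand (CACCTG on the other), and the Ebf1 core palindrome CCCNNGGG, which is its own reverse complement.
Vpreb1 (chr16:16869206-16869505, minus strand): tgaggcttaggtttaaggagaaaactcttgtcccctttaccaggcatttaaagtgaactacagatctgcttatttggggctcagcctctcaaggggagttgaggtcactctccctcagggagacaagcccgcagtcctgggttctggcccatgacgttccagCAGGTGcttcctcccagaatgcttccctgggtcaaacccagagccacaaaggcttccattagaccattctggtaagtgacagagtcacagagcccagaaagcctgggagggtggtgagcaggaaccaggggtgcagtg
Igll1 (chr16:16863936-16864235, minus strand): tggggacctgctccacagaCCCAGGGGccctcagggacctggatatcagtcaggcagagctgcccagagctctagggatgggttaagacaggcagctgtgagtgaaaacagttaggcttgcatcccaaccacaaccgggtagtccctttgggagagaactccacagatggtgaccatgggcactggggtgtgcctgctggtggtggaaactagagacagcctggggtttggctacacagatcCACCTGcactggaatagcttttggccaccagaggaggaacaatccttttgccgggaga
Cd79a (chr7:24897247-24897546, plus strand): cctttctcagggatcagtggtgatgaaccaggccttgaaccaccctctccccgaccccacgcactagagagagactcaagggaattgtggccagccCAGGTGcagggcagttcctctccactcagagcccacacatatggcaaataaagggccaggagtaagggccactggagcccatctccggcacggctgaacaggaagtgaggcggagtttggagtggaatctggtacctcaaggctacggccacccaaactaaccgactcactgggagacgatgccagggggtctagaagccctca
Cd22 (chr7:30878979-30879278, minus strand): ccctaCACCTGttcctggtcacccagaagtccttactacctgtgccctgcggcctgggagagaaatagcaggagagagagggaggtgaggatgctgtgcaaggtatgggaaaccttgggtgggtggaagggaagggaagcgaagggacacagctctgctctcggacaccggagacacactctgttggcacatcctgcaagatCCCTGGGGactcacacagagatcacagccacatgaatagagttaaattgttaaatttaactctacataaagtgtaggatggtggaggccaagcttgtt
The E-box was present in the promoters of Vpreb1, Igll1, Rag1, Cd79a and Cd22, 5 of 7, and in 20.2% of all 32851 promoters of that length. The palindrome was present in Igll1 and Cd22 only, 2 of 7, against 13.7% of all promoters. The Pax5 and Ebf1 windows held neither string of letters. A match describes the letters of the window and is not a measured binding site, since no binding was assayed here. Vpreb1 and Igll1 lie side by side on chromosome 16, with 5270 bases between their starts on the same strand.

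Vpreb1 has a near-identical copy, Vpreb2, and the authors' files name the pair Vpreb1a and Vpreb1b. The first 150 bases of each coding sequence, from the reference transcripts, show how little separates them; capitals mark the 3 bases that differ.
Vpreb1: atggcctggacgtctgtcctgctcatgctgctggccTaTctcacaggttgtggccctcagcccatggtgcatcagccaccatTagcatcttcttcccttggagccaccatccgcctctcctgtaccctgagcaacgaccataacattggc
Vpreb2: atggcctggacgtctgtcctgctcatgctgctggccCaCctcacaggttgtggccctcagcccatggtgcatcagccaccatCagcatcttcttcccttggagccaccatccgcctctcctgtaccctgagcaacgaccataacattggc
Over the whole coding sequence of 429 bases, 420 were identical (97.9%), with a longest identical run of 196 bases. Reads within such runs cannot be assigned to either copy by sequence, so the counts of both are uncertain. Vpreb2, named for this likeness and not by the rule for named genes, had 22, 0 and 4 counts in wild-type libraries 1 to 3 and 9, 12, 16 and 11 in Tnc-/- libraries 1 to 4, against 21 to 264 counts for Vpreb1.

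Levels are in CPM, the usual depth-scaled unit of read counts, here with library totals scaled by trimmed means (TMM). Totals of gene counts were 13.5 to 18.5 M in wild type and 19.3 to 28.2 M in Tnc-/-. Wild-type libraries 2 and 3 stood apart. The summed level of 2010 receptor genes of smell and pheromone sensing, which a shoulder joint is not known to use and which serve here as a measure of background reads, was 1399 and 982 CPM there, against 89.1 CPM in wild-type library 1 and 36.5 to 43.9 CPM in the Tnc-/- libraries. Tnc itself was 437, 292 and 327 CPM in wild type and 33.4, 38.9, 39.9 and 55.0 CPM in Tnc-/- (log2 fold change -3.08, SE 0.21; edgeR adjusted p = 2.8e-04), in accord with the labels. The files of the genotypes also differ in their identifier sets. They may have come from different counting runs, which the labels do not name and which could not be told apart from genotype.

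**Figure D1:**
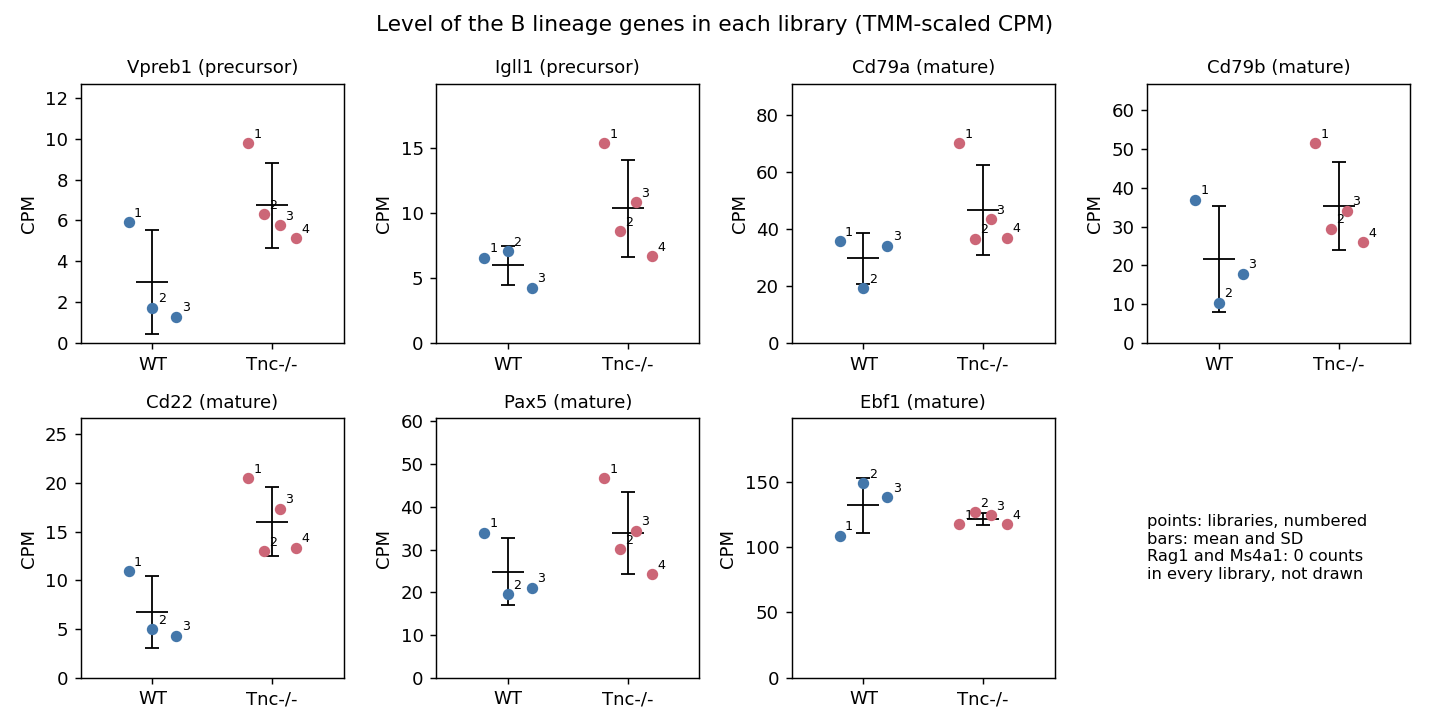
Level of each of the 7 measured genes (vertical axis, TMM-scaled CPM, linear from 0) in wild-type (blue) and Tnc-/- (red) libraries, with points numbered by library and bars for mean and SD. Tnc-/- library 1 is the highest point for all genes but Ebf1, wild-type library 1 lies above wild-type libraries 2 and 3 for all but Igll1 and Ebf1, and the genotypes do not overlap for Cd79a and Cd22.

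Vpreb1, the chain of the surrogate light chain that resembles a variable domain, measured 5.90, 1.73 and 1.28 CPM in the wild-type libraries, in order 1 to 3, and 9.76, 6.30, 5.77 and 5.13 CPM in the Tnc-/- libraries, in order 1 to 4. Wild-type library 1 lay inside the Tnc-/- range, and the other wild-type libraries lay below all of it. The log2 fold change was 1.18 (SE 0.60; edgeR adjusted p = 0.167), the second largest estimate of the 7 genes and the one with the largest error. Its partner Igll1 had 6.55, 7.04 and 4.25 CPM in wild type and 15.3, 8.58, 10.8 and 6.64 CPM in Tnc-/-. Here the overlap was narrow, with Tnc-/- library 4 between wild-type libraries 1 and 2, and the log2 fold change was 0.80 (SE 0.38; adjusted p = 0.144). The partners therefore differed in which wild-type library was high: library 1 for Vpreb1, and libraries 1 and 2 alike for Igll1.

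Cd79a had 35.6, 19.3 and 34.1 CPM in wild type and 70.0, 36.5, 43.4 and 36.9 CPM in Tnc-/-. The groups did not overlap, with every Tnc-/- library the higher, but with a margin of under 1 CPM at the nearest pair, and the difference did not pass the test (log2 fold change 0.66, SE 0.29; adjusted p = 0.125). Cd79b, its partner in the receptor, had 36.9, 10.4 and 17.9 CPM in wild type and 51.4, 29.4, 34.1 and 25.9 CPM in Tnc-/-. Wild-type library 1 exceeded 3 of the 4 Tnc-/- libraries (log2 fold change 0.70, SE 0.41; adjusted p = 0.233). The wild-type ratio of the pair was uneven, since library 3 was close to library 1 for Cd79a and below its level for Cd79b.

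Cd22 had 10.9, 4.98 and 4.31 CPM in wild type and 20.5, 13.0, 17.4 and 13.3 CPM in Tnc-/-. The groups did not overlap, and this was the gene called higher. Non-overlapping groups were found for 2 of the 7 genes, Cd79a and Cd22, with Tnc-/- higher in both, while 35.1% of all tested genes did not overlap and 17.7% had every Tnc-/- library higher. The spans of other genes cover 9.56% of the Cd22 exons, 9.01% of those of Vpreb1 and 10.8% of those of Pax5, and where exons overlap exons the other gene is on the opposite strand. Whether the authors counted by strand is not given in the sources used here. Of 702 protein-coding genes wholly enclosed on the opposite strand only, 642 (91.5%) were at 0 in all 7 libraries. Counts from the overlapped parts may therefore be incomplete, and the size of any loss was not tested.

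Pax5 had 33.9, 19.5 and 21.1 CPM in wild type and 46.7, 30.1, 34.4 and 24.2 CPM in Tnc-/-. Wild-type library 1 lay within the Tnc-/- range, and the estimate was smaller than for the receptor genes (log2 fold change 0.45, SE 0.27; adjusted p = 0.246). Ebf1 went against the others, with 108, 149 and 138 CPM in wild type and 117, 127, 124 and 117 CPM in Tnc-/- (log2 fold change -0.12, SE 0.14; adjusted p = 0.548). Its Tnc-/- values lay within the wild-type range, and wild-type library 1, high for most B lineage genes, was the lowest of the 7. Ebf1 is also known from fat and stromal cells, so its RNA in a joint need not come from B cells. Of the 10 listed adipocyte and stromal genes, 1 was called higher (Adipoq, an adipocyte hormone, log2 fold change 0.63, edgeR adjusted p = 0.0491) and 1 lower (Ebf2, a relative of Ebf1, -1.95, adjusted p = 0.0203), with summed levels of 989 to 1217 CPM in wild type and 1218 to 1589 CPM in Tnc-/-. Ebf2, which spans 197.6 kb, had 8.59 CPM in wild-type library 1, within the Tnc-/- range of 4.18 to 9.53 CPM, against 42.1 and 29.1 CPM in wild-type libraries 2 and 3. The part of fat and stromal cells in the Ebf1 level was not tested.

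Pax5 and Ebf1 are long genes, spanning 185.7 and 390.8 kb, over which a background proportional to span adds most. The background density of the receptor genes, per kb of gene span, was 0.00595, 0.0941 and 0.0660 CPM in wild type and 0.00246 to 0.00296 CPM in Tnc-/-. Multiplied by the part of the Ebf1 span outside other genes, it came to 2.31, 36.5 and 25.6 CPM in wild type and 0.955 to 1.15 CPM in Tnc-/-. Less that amount, a calculation chosen after the data were seen, Ebf1 stood at 106, 112 and 112 CPM in wild type and 116, 125, 123 and 116 CPM in Tnc-/-, and the log2 ratio of means turned from below to above 0 (0.13, with no test). For Pax5 the remainder was 33.0, 4.26 and 10.4 CPM in wild type and 46.2, 29.6, 34.0 and 23.8 CPM in Tnc-/-, and the log2 ratio was 1.075 in place of 0.45. For Vpreb1, Igll1, Cd79a and Cd79b, which span 2.44 to 4.82 kb, the same amount was under 0.5 CPM in every library, and for Cd22 it reached 1.35 CPM in wild-type library 2.

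Compared per kb of exon, so that genes can be set side by side, the mean level in wild type was 20.4 ± 6.2 CPM per kb for Cd79a (SD, n = 3), 15.2 ± 9.6 for Cd79b, 13.5 ± 2.1 for Ebf1, 2.81 ± 0.89 for Pax5, 2.75 ± 0.69 for Igll1, 2.48 ± 2.1 for Vpreb1 and 1.34 ± 0.72 for Cd22. Among neighbours in this order, Ebf1 and Pax5 differed by more than the larger of their SDs and the other pairs did not. The background density was not subtracted from these levels. For Pax5 it came to 15.3 of 19.5 CPM in wild-type library 2 and 10.7 of 21.1 CPM in wild-type library 3. The place of Pax5 in the wild-type order is therefore uncertain. In Tnc-/- (SD, n = 4) the values were 32.1 ± 11 for Cd79a, 24.6 ± 7.9 for Cd79b, 12.4 ± 0.49 for Ebf1, 5.62 ± 1.7 for Vpreb1, 4.78 ± 1.7 for Igll1, 3.82 ± 1.1 for Pax5 and 3.18 ± 0.71 for Cd22. Here Cd79b and Ebf1, and Ebf1 and Vpreb1, differed by more than the larger SD, and the other neighbours did not.

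The calls depended on which wild-type libraries entered the fit. Of the 7 genes, 5 were highest among wild type in library 1, and 6 were highest of all in Tnc-/- library 1. Every Tnc-/- library was above wild-type libraries 2 and 3 for 5 of the 7 genes, and above wild-type library 1 for 4. Without wild-type library 1, 6 of the 7 were called higher (all but Ebf1; log2 fold change 2.26 for Vpreb1, 1.88 for Cd22, 1.41 for Cd79b), where 24.3% of all 21989 tested genes were called higher and 64.2% were called in either direction. With wild-type library 1 as the lone wild-type library, its spread assumed to be like that of Tnc-/-, none was called, where 4.45% of all tested genes were called. The log2 fold changes there were 0.66 for Igll1, 0.55 for Cd22, 0.39 for Cd79a, 0.19 for Vpreb1, 0.16 for Ebf1, -0.01 for Pax5 and -0.07 for Cd79b. Cd22 kept its call in 6 of 18 alternatives and lost it when any library other than wild-type library 1 was left out (edgeR adjusted p 0.0676 to 0.125), while its log2 fold change in those fits was 1.01 to 1.33.

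**Figure D2:**
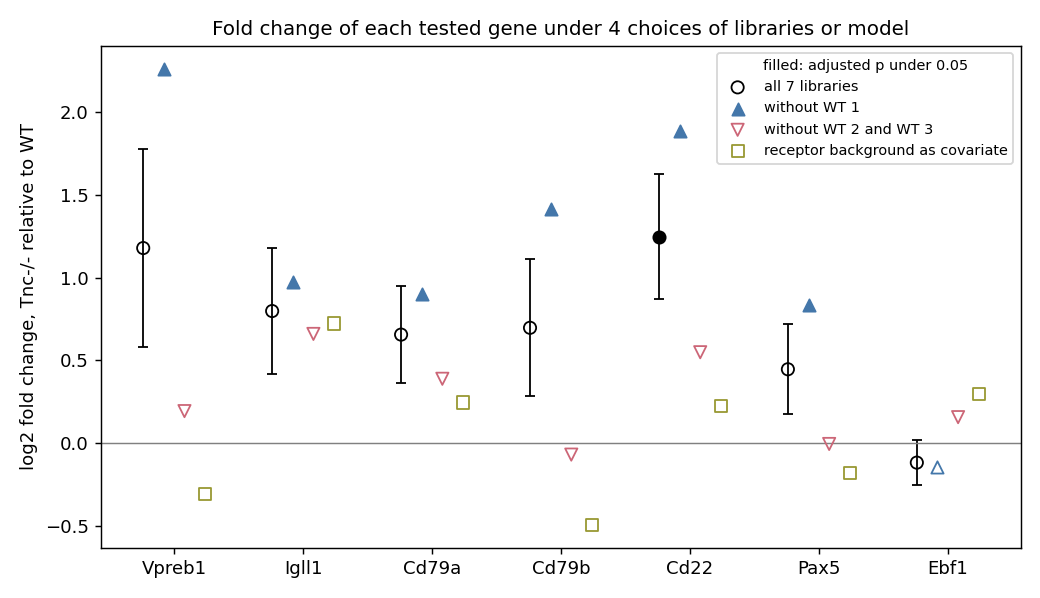
Log2 fold change of Tnc-/- relative to WT (vertical axis) for each of the 7 tested genes with all libraries (circles, bars for 1 SE), without wild-type library 1 (upward triangles), without wild-type libraries 2 and 3 (downward triangles), and with receptor background as a covariate (squares). Filled symbols have an adjusted p under 0.05: Cd22 with all libraries, and 6 genes without wild-type library 1. Open symbols fall on both sides of 0 for Vpreb1, Cd79b, Pax5 and Ebf1. Receptor background was higher in every wild-type library than in any Tnc-/- library, so the squares come from a covariate that overlaps with genotype.

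Precursor and mature genes were set against each other within each library, as the mean log2(CPM + 0.5) of the 3 precursor genes minus that of the 6 others. The values were -2.633, -2.434 and -2.995 in wild type and -2.498, -2.483, -2.587 and -2.598 in Tnc-/-. The means of -2.69 ± 0.28 (SD, n = 3) and -2.54 ± 0.06 (SD, n = 4) differed by 0.15, less than the spread among wild-type libraries. The difference was 0.022 without Ebf1, -0.027 without Ebf1 and Pax5, and 0.036 with a pseudocount of 2 CPM. Rag1 and Ms4a1 enter these means as constants. Without them, a choice made after the data were seen, the precursor mean was higher by 0.99 in Tnc-/- and the mean of the other 5 genes by 0.62, a difference of 0.37. The values behind it were -2.60 ± 0.42 in wild type (SD, n = 3) and -2.23 ± 0.14 in Tnc-/- (SD, n = 4), so that it too was less than the wild-type spread.

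The ratio of surrogate light chain to receptor chain needs no scaling between libraries. Vpreb1 and Igll1 held 14.7% (95% Wilson interval 13.0 to 16.5), 22.8% (19.6 to 26.4) and 9.62% (7.90 to 11.7) of the counts of Vpreb1, Igll1, Cd79a and Cd79b in wild-type libraries 1 to 3. In Tnc-/- libraries 1 to 4 the share was 17.1% (16.0 to 18.3), 18.4% (16.5 to 20.5), 17.6% (15.9 to 19.5) and 15.8% (14.0 to 17.7). Wild-type libraries 2 and 3 were the highest and the lowest of the 7 and their intervals did not overlap, while the 4 Tnc-/- intervals all overlapped. The means, 15.7 ± 6.7% in wild type (SD, n = 3) and 17.2 ± 1.1% in Tnc-/- (SD, n = 4), differed by less than the spread in wild type. Intervals cover counting error only, and no p is given for this share because the genes were chosen with results known.

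Rag1 and Ms4a1 had 0 counts in all 7 libraries, where 3 counts would have been 0.111 to 0.199 CPM. In the GENCODE M21 annotation (GRCm38), all of the Rag1 span of 11.2 kb lies inside another gene of the same strand, B230118H07Rik, although only 80 bases of its exons overlap exons of that gene. All of the Ms4a1 span of 16.6 kb lies inside 4930526L06Rik on the opposite strand, with 0 bases of exon overlap. Among 1283 protein-coding genes whose span lies wholly inside other genes, 1128 (87.9%) were at 0 in all 7 libraries, against 2060 of 11691 (17.6%) with no overlap and 149 of 7760 (1.92%) with an overlap of up to 50%. Where the enclosing gene was on the opposite strand only, 642 of 702 (91.5%) were at 0. In the Tnc-/- files 14.2 to 14.6% of the reads falling in genes were set aside as ambiguous between genes. The 0 of Rag1 and of Ms4a1 is therefore given as a listed value and not as a level of their RNA. Rag2, the other recombinase subunit, the plasma cell gene Mzb1 and the light chain constant genes Igkc, Iglc1 and Iglc3 were also listed at 0 throughout.

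**Figure D3:**
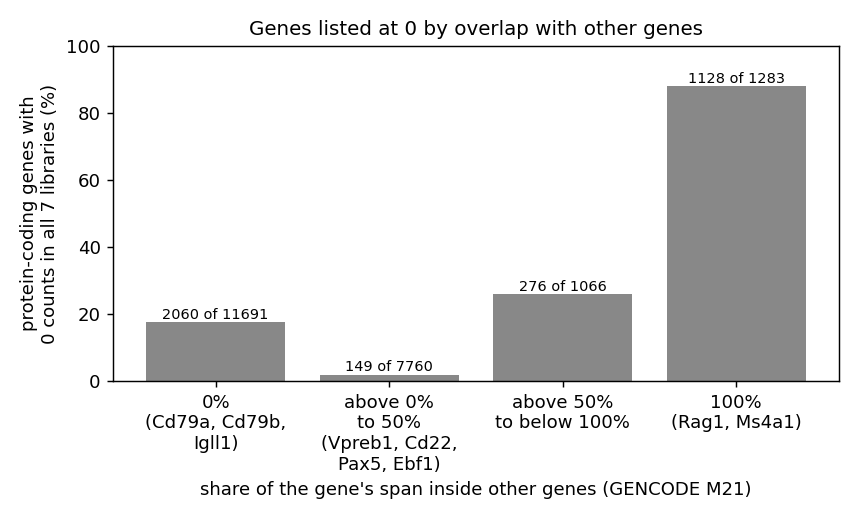
Share of protein-coding genes with 0 counts in all 7 libraries (vertical axis, percent, from 0) by the share of the gene's span that lies inside other genes (horizontal axis, GENCODE M21), with the numbers of genes above the bars. The bar for wholly enclosed genes, the class of Rag1 and Ms4a1, stands at 87.9%, and the classes of the 7 measured genes at 17.6% (no overlap) and 1.92% (up to 50%).

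The rest of the lineage was read from lists fixed as symbols, together 80 genes of which 74 were tested. Of these 10 were called higher and 4 lower, with a median log2 fold change of 0.28, against 10.3% and 18.7% of all tested genes. Cd37, a tetraspanin of mature B cells, had 45.1, 24.1 and 27.6 CPM in wild type and 99.8, 57.6, 75.5 and 69.1 CPM in Tnc-/- (log2 fold change 1.22, SE 0.26; adjusted p = 0.0112). The groups were separate, with wild-type library 1 nearest to Tnc-/-, the pattern of Cd22. Among 19 other pan-B and mature genes 2 were called higher, Cd37 among them, and Bank1, a scaffold of B cell signalling, was called lower (log2 fold change -3.33, adjusted p = 0.0150).

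Among 17 genes of B cell receptor signalling, 6 were called higher and 0 lower, with a median log2 fold change of 0.39 and every estimate above 0. Among them were the kinase Syk (1.155, adjusted p = 0.0184), the phosphoinositide kinase subunit Pik3cd (0.93, 0.0105), the phosphatases Ptpn6 (1.001, 0.0183) and Inpp5d (0.44, 0.0450), and the exchange factor Vav1 (0.54, 0.0423), all given as edgeR log2 fold change and adjusted p. These 5 are also used by myeloid cells. Among 13 B lineage transcription factors, Tcf3 (E2A; 1.06, adjusted p = 0.0209), Irf8 (0.91, 0.0355) and Spi1 (PU.1; 0.79, 0.0283) were called higher and Foxo1, which drives Rag gene expression, lower (-0.55, 0.0470). Spi1 and Irf8 likewise serve myeloid cells.

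Of the other 14 precursor genes 13 were tested and none was called higher. Lef1, a factor of pro-B cells and T cells, was called lower (log2 fold change -1.85, SE 0.46; adjusted p = 0.0188), with 7.14, 34.3 and 23.7 CPM in wild type and 5.02 to 7.69 CPM in Tnc-/-. Wild-type library 1 lay within the Tnc-/- range, and only wild-type libraries 2 and 3 were above it. At the end of the lineage, of 8 plasma cell genes 6 were tested and none was called higher. Prdm1, the master regulator of plasma cells, was called lower (-1.96, edgeR adjusted p = 0.00997). It had 9.12, 29.3 and 29.5 CPM in wild type and 4.81 to 7.02 CPM in Tnc-/-. Of 11 immunoglobulin constant genes 8 were tested and none was called; the smallest p-values were those of Igha (0.79, adjusted p = 0.0974) and Iglc2 (1.165, adjusted p = 0.107). Ighm, the mu heavy chain of immature and naive B cells, named after its values were seen, had 804, 115 and 134 CPM in wild type and 375, 186, 335 and 505 CPM in Tnc-/-. Unlike the 7 genes, its highest value was in wild-type library 1.

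All 4 lineage genes called lower, Bank1, Lef1, Prdm1 and Foxo1, are long, spanning 84.9 to 272.7 kb, and the 10 called higher span 5.48 to 100.2 kb. Split by span after the data were seen, the 81 tested lineage genes, the 7 included, had a median log2 fold change of 0.74 up to 10 kb (26 genes, 23 above 0), 0.43 from 10 to 50 kb (29 genes, 22 above 0) and 0.10 over 50 kb (26 genes, 14 above 0). All tested genes had 0.29, 0.08 and -0.54 in the same classes. Both wild-type libraries 2 and 3 exceeded wild-type library 1 by over 2-fold for 7 of the 26 genes over 50 kb, 1 of the 29 in the middle class and 0 of the 26 up to 10 kb. In Bank1, whose span is 272.7 kb, wild-type libraries 2 and 3 had 37.5 and 21.9 CPM, and wild-type library 1 had 3.01 CPM, within the Tnc-/- range of 0.732 to 3.22 CPM. The part of background reads in the lower calls was not tested gene by gene. Without wild-type libraries 2 and 3, 2 of 75 lineage genes were called, Ighg3 and Jchain, and none of the 14 called with all libraries.

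**Figure D4:**
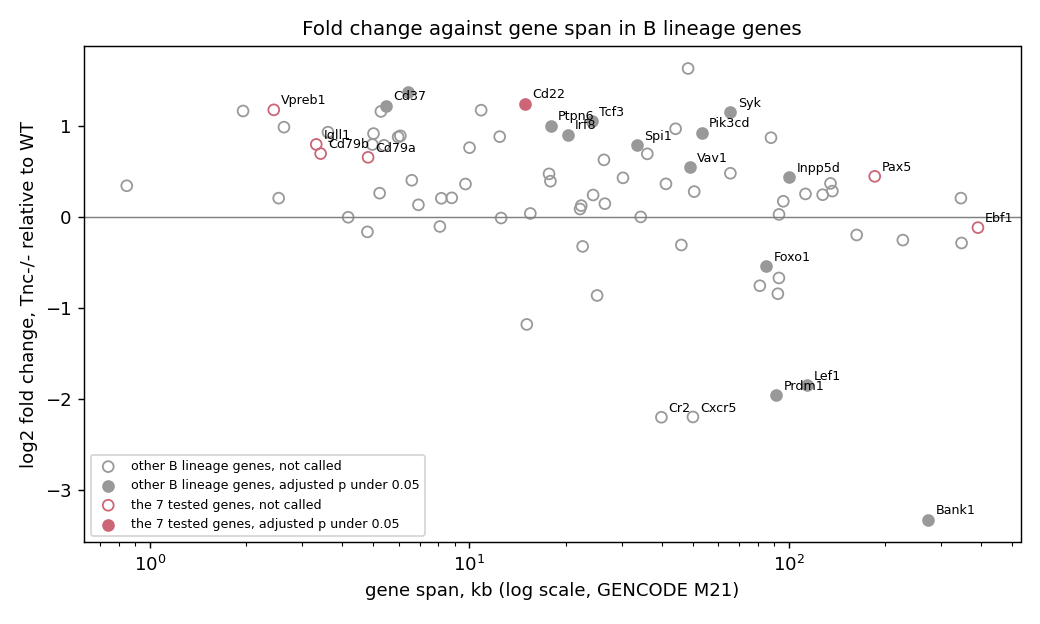
Log2 fold change of Tnc-/- relative to WT (vertical axis) against gene span in kb (horizontal axis, log scale) for the 7 tested genes (red) and 74 other B lineage genes (grey); filled points have an adjusted p under 0.05. Points below -0.5 that are filled (Foxo1, Prdm1, Lef1, Bank1) all lie beyond 80 kb, while Vpreb1, Igll1, Cd79a and Cd79b lie under 5 kb and above 0.

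Markers of other marrow cells were also read in each library. Of 10 granulocyte genes, the granule protein genes Prtn3, Camp, Ltf, Ngp, Fcnb and Chil3 were called higher and 0 lower (median log2 fold change 1.14), and the summed level was 3166, 1435 and 1573 CPM in wild type and 6189, 3508, 4875 and 4214 CPM in Tnc-/-. Of 10 erythroid genes 9 were tested, with 8 higher and 0 lower (median 1.49). They were the globins Hbb-bs and Hba-a1, the erythroid factor Klf1, the erythropoietin receptor Epor, the membrane and skeleton genes Slc4a1, Ank1 and Sptb, and Ermap, with log2 fold changes from 1.20 (Hba-a1) to 1.76 (Ank1). The sum was 8773, 4532 and 5704 CPM in wild type and 25398, 14706, 15078 and 12851 CPM in Tnc-/-. In both lists, as for 5 of the 7 B lineage genes, wild-type library 1 was the highest wild-type library and Tnc-/- library 1 the highest of all. Each of these sums was displaced further between the genotypes than the mean of the B lineage genes, and the part of marrow content in the B lineage values was not tested. Of 11 tested T and NK cell genes 0 were called higher and 2 lower, Cd3e (log2 fold change -2.52, adjusted p = 0.0461) and Lck (-1.47, adjusted p = 0.0224). Wild-type libraries 2 and 3 were the high ones for both. Cd3e had 0.590 CPM in wild-type library 1, within the Tnc-/- range of 0.523 to 1.18 CPM, against 9.37 and 5.28 CPM, and Lck had 7.03 CPM there, against 20.7 and 19.1 CPM. Estimates lay above 0 for 4 of the 11. Among 5 tested genes of plasmacytoid dendritic cells, Tcf4, which other cells also express and which spans 345.7 kb, was called lower (-0.49, adjusted p = 0.0403), while 3 of the 5 estimates lay above 0 with a median of 0.56. Siglech, a defining receptor of these cells and named after its values were seen, had a log2 fold change of 1.29 (adjusted p = 0.0543), with groups that did not overlap. Of 6 macrophage genes none was called. The smallest p-values there were those of the complement genes C1qa (0.60, adjusted p = 0.118) and C1qb (0.41, adjusted p = 0.216).

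**Figure D5:**
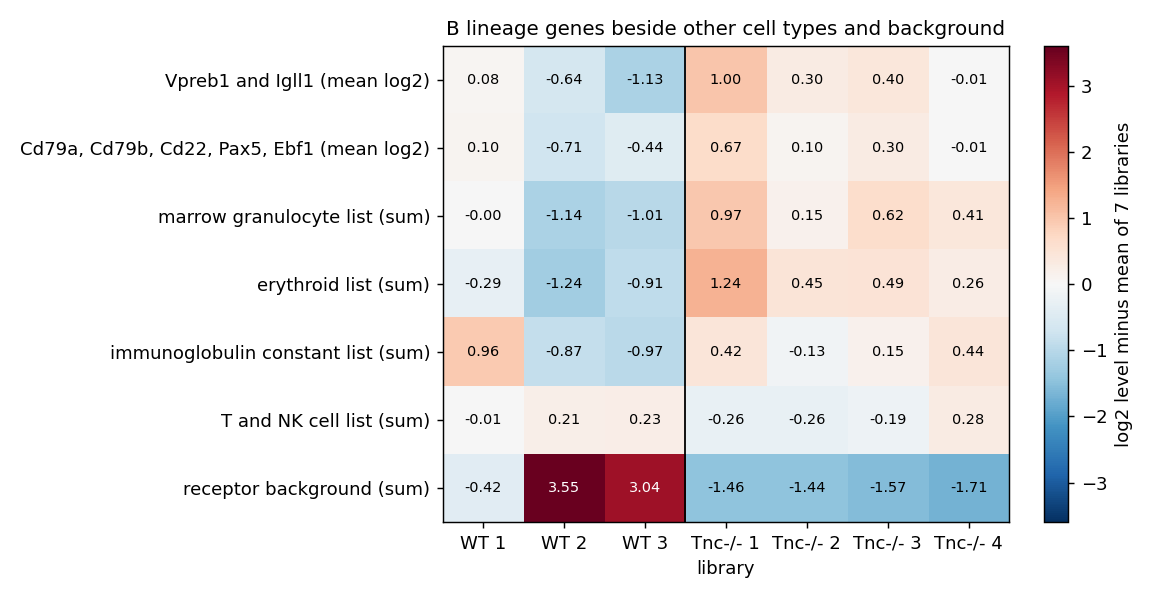
Log2 level in each library minus the mean of the 7 libraries (colour and printed value) for the mean of Vpreb1 and Igll1, the mean of the 5 other measured genes, and the summed levels of 4 marker lists and the receptor background. The first 4 rows are lowest in wild-type libraries 2 and 3 (-0.44 to -1.24) and highest in Tnc-/- library 1 (0.67 to 1.24), while the receptor background is highest in wild-type libraries 2 and 3 (3.55 and 3.04).

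The genes outside all lists whose levels ran closest to the 9 genes over the 7 libraries were named by rule, from 14798 genes whose mean reached 1 CPM. Closest to the precursor mean, by Pearson r of log2(CPM + 0.5), were Cul4a, a ubiquitin ligase scaffold (0.989), Apbb1ip, an integrin adaptor of blood cells (0.988), Tcf19 (0.987), Trf, the iron carrier transferrin (0.982), and Uros, an enzyme of heme synthesis (0.982). Closest to the mean of the other 6 were the cyclin Ccna2 (0.998), the carbonic anhydrase Car2 (0.996), the replication kinase subunit Dbf4 (0.996), the replication licensing factor Cdc6 (0.994) and Il18rap, a chain of a cytokine receptor (0.994). Car2, known from red cells and osteoclasts, had 364, 132 and 200 CPM in wild type and 662, 340, 424 and 327 CPM in Tnc-/-, the same order of libraries 1, 3 and 2 within wild type as Cd79b. These values describe 7 libraries that share the displacement of wild-type libraries 2 and 3, and no p is given for them.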

How the data were processed

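RNA of 7 shoulder joints was sequenced as poly(A) libraries (NEBNext Ultra), per the labels' protocols. Each deposited file holds the authors' unnormalised read counts of 1 library, by gene. Per the submitters' processing notes, which give no roles or order, FastQC 0.11.9, HISAT2 2.2.1, HTSeq 2.0.2 and DESeq2 1.38.3 were used with build GRCm39 (mm39); the counted feature and strand setting are not given in the sources used here. Rows naming no gene (30.1 to 32.7% of Tnc-/- reads, none listed for wild type) were left out. Identifiers in all files numbered 56854, with 126 in wild-type and 87 in Tnc-/- files alone; 0 value columns were unmapped. GENCODE M21 (GRCm38), which held 91.5% of the identifiers, gave spans and overlaps only.

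Genotypes were compared with edgeR 4.0.16 in R 4.3.3 (TMM, filterByExpr, robust quasi-likelihood F test, genotype only), over all genes, with Benjamini-Hochberg adjustment at 0.05; fold changes are log2, Tnc-/- over wild type. The script was tested on simulated data. Replicates are separate mice. Groups follow the genotype labels. Alternatives were other scalings and filters, left-out libraries, a replicate block, receptor background as a covariate, DESeq2 1.42.0 and limma 3.58.1 voom; a fit of genes spanning at most 10 kb and 2 further alternatives were added after seeing the data. The 9 genes and all lists were chosen with earlier results of these data known. Named genes are the 9, Tnc, every called gene of each B lineage or marker list or, where it has none, its 2 of smallest p, and the 5 genes most like each mean; others are marked as chosen after their values were seen. A gene that the rule would name is not reported here.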

Additional observations from a re-analysis of the deposited data

Results flagged for a closer look

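Among 20 values tested for a library far from the others of its genotype, 2 passed Dixon's limit for 4 libraries, and chance passes about 1 in 20 such groups. Both lay in Tnc-/- library 4. The summed level of the plasma cell genes was 413.5 CPM there, against 317.1, 309.7 and 324.5 CPM in Tnc-/- libraries 1 to 3 (gap over range 0.858). The summed level of the T and NK cell genes was 187 CPM there, against 128.7, 128.5 and 134.4 CPM (0.899). None of the 7 measured B lineage genes was far from the others in Tnc-/- by this measure. A signal outside the gene counts was the reads set aside as ambiguous between genes in the Tnc-/- files, up to 14.6% of those reads and gene counts together; no such row was in the wild-type files, so the genotypes could not be compared.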

How the results depend on the processing

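The number of the 9 genes called, 1 with all libraries, was 0 under library totals, without wild-type libraries 2 and 3, under the background covariate, DESeq2 with Bonferroni adjustment, limma voom and the fit of genes spanning at most 10 kb (Cd22 is not in that fit), and 0 to 6 when 1 library was left out. Other lineage genes called, 14 with all libraries, numbered 2 without wild-type libraries 2 and 3, 3 under the background covariate, 0 under DESeq2 with Bonferroni adjustment, 2 under limma voom and 3 in the fit of short genes (where only 22 were tested), and 1 to 46 when 1 library was left out. Over all genes the count, 5159, was 825, 399, 1890, 973 and 629 in those settings, 9423 under DESeq2 with Benjamini-Hochberg adjustment and 2229 to 14113 with 1 library left out. Estimates changed sign under the background covariate for Vpreb1 (-0.31), Cd79b (-0.49), Pax5 (-0.18) and Ebf1 (0.30). Without wild-type libraries 2 and 3 they did so for Cd79b (-0.069), Pax5 (-0.0052) and Ebf1 (0.16). Ebf1 also changed sign after the receptor density was subtracted (0.13). The cause was not tested. Receptor background was higher in every wild-type library (89.1 to 1399 CPM) than in any Tnc-/- library (36.5 to 43.9 CPM). The covariate therefore overlaps with genotype, and estimates from that fit are uncertain. The precursor minus mature difference of 0.15 was 0.37 without Rag1 and Ms4a1, -0.027 to 0.20 in the other alternatives with all libraries, 0.092 without wild-type libraries 2 and 3, and ranged from -0.0076 to 0.27 when 1 library was left out. Same-numbered mice did not deviate together (r = -0.0053, 0.10 and -0.0055). These correlations cannot exclude a shared batch, since wild-type libraries 2 and 3 stood apart in background. With the replicate block 0 of the 9 genes, 14 lineage genes and 1932 of all genes were called. Library totals shifted the median of all genes to -0.24. In the fit of genes spanning at most 10 kb, log2 fold changes were 0.98 for Vpreb1, 0.52 for Igll1, 0.37 for Cd79a and 0.46 for Cd79b. Each was smaller than with all genes in the fit. At 0.111 to 0.199 CPM for 3 counts, depth allowed each of the 7 measured genes to be counted in every library.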
